A study of Homo sapiens with 36 samples.

Results

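Of the 21599 gene rows measured in this RNA-seq series, 5 are described here: GPR34, GPR82, FFAR4, TMEM37 and KLRC4. They were chosen by their log2 values in wild-type THP-1 macrophages, as receptors with falls among the largest under LPS with interferon-gamma (IFNg). They were followed in both genotypes of the study and at every time. All 5 matched a row by Entrez Gene number, and all 5 passed the filter on low values, which kept 21232 genes at or above log2(10), that is 3.32, in at least 3 libraries. In knockout cells, whose libraries the rule of choice did not use, all 5 were lower with LPS+IFNg at 6, 12 and 24 h. The choice was still made with earlier results of these data known. Changes there ran from -2.34 for KLRC4 at 6 h to -6.25 for TMEM37 at 24 h on the log2 scale. TMEM37 alone among the 5 passed the test of a change over time: in stimulated KO cells it was still at a mean of 5.72 at 6 h and stood at 2.11 by 24 h.

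GPR34, GPR82 and FFAR4 are G protein-coupled receptors, membrane proteins that pass an outside signal to G proteins and arrestins inside the cell. GPR34 answers to lysophosphatidylserine, a lipid released from cell membranes, and is known as a gene of resting microglia. GPR82 has no settled ligand, and mice that lack it eat less. FFAR4, also called GPR120, answers to long-chain fatty acids, omega-3 fatty acids among them, and in mouse macrophages its signal through beta-arrestin dampens inflammatory activation. TMEM37 encodes a membrane protein related to the gamma subunits of voltage-gated calcium channels, so the word receptor does not describe it. KLRC4, or NKG2F, belongs to the lectin-like receptor genes of the natural killer complex and lies beside KLRK1, which encodes the activating receptor NKG2D.

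THP-1 is a human monocytic leukaemia cell line that turns macrophage-like with the phorbol ester PMA, and every library came from cells kept in 100 nM PMA for 72 h. The 12 groups, of 3 libraries each, were IRG1 knockout (KO) cells given LPS+IFNg (each at 200 ng/mL), KO cells given vehicle, wild-type (WT) cells given LPS+IFNg at the same doses, and WT cells given vehicle, each for 6, 12 or 24 h. IRG1, now named ACOD1, encodes the enzyme that makes itaconate in activated macrophages. Whether the KO line is 1 clone is not given in the sources used here, and neither is whether the 3 replicates are separate cultures, so a p-value here speaks only of library-to-library spread. The values are log2 expression values as the authors deposited them, with no read counts, so depth is unknown and levels are compared between samples of the same gene only. In bulk RNA, fewer cells that express a gene and less of its RNA per cell cannot be told apart.

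The promoters are shown because GPR82, FFAR4 and KLRC4 fell together while the bases around their start sites differ in composition. Each window runs from 250 bases before to 50 bases after the gene's start, 5′ to 3′ on the gene's strand, as RefSeq gives it for GRCh38.p14, and 3 of the 5 genes had an entry. Capitals mark matches, on either strand, to 1 of 7 motifs searched. The motif named kB is GGG and CC with any 5 bases between them, and ISRE is GAAA repeated after any 2 bases. The motif named GAS is TTCNNNGAA, that of PU.1 is GAGGAA, that of AP-1 is TGANTCA, that of C/EBP is TTGCNNAA and that of TATA boxes is TATAAA. The windows lie at chrX:41723931-41724230 on the plus strand for GPR82, chr10:93566415-93566714 on the plus strand for FFAR4 and chr12:10409708-10410007 on the minus strand for KLRC4.
GPR82: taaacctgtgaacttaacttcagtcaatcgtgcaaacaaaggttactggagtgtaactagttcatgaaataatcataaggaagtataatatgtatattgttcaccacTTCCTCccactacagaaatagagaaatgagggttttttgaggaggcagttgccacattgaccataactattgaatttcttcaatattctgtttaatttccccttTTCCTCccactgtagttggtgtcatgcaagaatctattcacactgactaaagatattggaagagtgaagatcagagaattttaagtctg
FFAR4: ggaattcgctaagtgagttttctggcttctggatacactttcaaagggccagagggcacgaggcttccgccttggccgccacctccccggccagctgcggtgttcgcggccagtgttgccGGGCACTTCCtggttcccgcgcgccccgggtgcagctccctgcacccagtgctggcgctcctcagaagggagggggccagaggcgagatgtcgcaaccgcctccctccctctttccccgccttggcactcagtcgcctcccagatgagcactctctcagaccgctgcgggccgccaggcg
KLRC4: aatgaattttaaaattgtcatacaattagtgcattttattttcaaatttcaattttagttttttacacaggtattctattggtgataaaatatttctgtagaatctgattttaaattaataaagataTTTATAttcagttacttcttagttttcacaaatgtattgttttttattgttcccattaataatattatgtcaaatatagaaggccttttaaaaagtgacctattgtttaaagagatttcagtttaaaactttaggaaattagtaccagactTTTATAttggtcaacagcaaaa

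The GPR82 window holds 2 PU.1 matches, both read as TTCCTC, which start at positions -143 and -39 relative to the gene's start. At least 1 such match is found in 27.9% of the 35116 promoters of the same length. PU.1 is the transcription factor that defines the myeloid lineage. FFAR4 has 1 kB match, GGGCACTTCC, at position -130, against 58.7% of promoters with a match. KLRC4 has 2 TATA matches on the opposite strand, TTTATA, at positions -123 and 29, against 11.5% of promoters. None of these 3 windows matched the ISRE, GAS, AP-1 or C/EBP letters, which 3.57%, 7.66%, 7.71% and 10.5% of promoters hold. Base composition set the windows apart: GC was 35.7% for GPR82, 67.0% for FFAR4 and 22.3% for KLRC4, beside a median of 58.7% over all promoters, and 0.0313% of promoters had a lower GC than KLRC4. A match is a run of letters in a window and not a bound site.

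ACOD1 transcript had lower means but was not absent in stimulated KO cells, with means of 8.48, 8.90 and 8.89 at 6, 12 and 24 h, against 11.79, 11.59 and 10.37 in stimulated WT cells. Its stimulated KO libraries had 8.35, 8.31 and 8.80 at 6 h, 7.98, 10.22 and 8.49 at 12 h, then 8.31, 9.78 and 8.60 at 24 h, and its stimulated WT libraries had 12.76, 11.49 and 11.11, then 11.97, 11.80 and 11.00, then 10.95, 10.96 and 9.20. The genotypes did not overlap at 6 and 12 h but did at 24 h, where KO replicate 2 lay above WT replicate 3. The 10 macrophage markers all had a row. Of them, 8 had a mean at or above the filter value in stimulated KO cells, 9 in KO vehicle, 9 in stimulated WT and 10 in WT vehicle cells. By mean level over all libraries CD68 was the highest of the 10, with group means of at least 11.04, and MRC1 the lowest (2.85). Their summed log2 level ran from 74.6 to 78.8 in stimulated KO libraries, 76.6 to 86.2 in KO vehicle libraries, 79.4 to 91.8 in stimulated WT libraries and 92.1 to 102.6 in WT vehicle libraries. That sum therefore differed by genotype and treatment in the same direction as several values below, and its part in them was not tested. KO LPS+IFNg replicate 2 at 6 h had the lowest mean correlation with its fellow replicates, 0.839, against 0.870 to 0.964 in the others.

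The WT values chose the genes and are given as a description, with no test. When the 2216 genes that were called lower at all 3 times with separate groups were ranked by mean WT change, GPR82 came 1st (-6.54), TMEM37 3rd (-5.79), GPR34 5th (-5.52), FFAR4 7th (-5.11) and KLRC4 8th (-5.01). Between them stood the keratin pseudogenes KRT17P1 (-5.94) and KRT17P2 (-5.68) and the noncoding LINC01736 (-5.46). Just outside came CD180 (-4.98), an LPS-receptor homologue of B cells and macrophages, then PTPN22 and CLEC3B (both -4.94) and the fractalkine receptor CX3CR1 (-4.93). KLRK1, the receptor gene beside KLRC4, had WT changes of -2.62, -5.71 and -7.81 at 6, 12 and 24 h, all called lower. It did not enter the ranking because its groups were not separate at every time. In KO cells the same ranking, over 1992 genes, placed GPR82 at 8, TMEM37 at 19, FFAR4 at 47, KLRC4 at 161 and GPR34 at 171. For the background in WT cells, 20.9%, 21.7% and 26.1% of genes were called lower at 6, 12 and 24 h.

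GPR34, the lysophosphatidylserine receptor, was close to the bottom of the scale in every stimulated library. In KO cells given LPS+IFNg its log2 level was 0.21, 0.81 and 0.19 at 6 h, 0.22, 0.56 and 0.20 at 12 h, then 0.53, 0.44 and 0.81 at 24 h (replicates 1, 2 and 3). KO cells given vehicle had 2.89, 3.92 and 2.94 at 6 h, 2.77, 4.88 and 2.94 at 12 h, then 3.84, 4.57 and 3.56 at 24 h. Treatments did not overlap, and replicate 2 was the highest vehicle library at each time. In KO cells the log2 change was -2.85 ± 0.46 at 6 h, -3.20 ± 0.46 at 12 h and -3.40 ± 0.46 at 24 h (SE), with limma adjusted p of 1.62e-05, 3.33e-06 and 1.13e-06. WT cells given LPS+IFNg had 0.21, 0.51 and 0.32 at 6 h, 0.53, 0.64 and 0.81 at 12 h, then 0.68, 0.82 and 0.83 at 24 h. WT cells given vehicle had 5.26, 4.51 and 6.58 at 6 h, 6.12, 6.00 and 6.57 at 12 h, then 6.82, 6.70 and 6.45 at 24 h. The described WT changes were -5.10, -5.57 and -5.88. Stimulated levels overlapped between genotypes, and the vehicle levels were the ones that differed: by mean, the order was WT vehicle at 24, 12 and 6 h (6.66, 6.23 and 5.45), then KO vehicle at 24, 12 and 6 h (3.99, 3.53 and 3.25), then the 6 stimulated groups between 0.33 and 0.78. Every group overlapped with the next in that order, apart from the step down to the stimulated groups.

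GPR82, the orphan receptor next to GPR34 on chromosome X, was low in every stimulated library and high in every vehicle library. KO cells given LPS+IFNg had log2 levels of 2.08, 2.13 and 2.39 at 6 h, 2.59, 2.12 and 0.80 at 12 h, then 2.79, 1.73 and 2.11 at 24 h. KO cells given vehicle had 7.10, 6.65 and 6.42 at 6 h, 7.16, 8.21 and 6.29 at 12 h, then 8.12, 8.23 and 7.22 at 24 h. The treatments were more than 3 log2 units apart at their closest at each time. The change in KO cells was -4.53 ± 0.44, -5.38 ± 0.44 and -5.65 ± 0.44 at 6, 12 and 24 h (SE), with limma adjusted p of 2.77e-09, 1e-10 and 3.49e-11. WT cells given LPS+IFNg had 1.99, 1.86 and 2.26 at 6 h, 1.48, 1.67 and 1.17 at 12 h, then 2.40, 1.85 and 1.37 at 24 h. WT cells given vehicle had 8.47, 7.61 and 7.84 at 6 h, 8.88, 7.87 and 8.24 at 12 h, then 9.04, 8.89 and 8.05 at 24 h. WT changes were -5.94, -6.89 and -6.79. Ordered by mean, WT vehicle came first at 24, 12 and 6 h (8.66, 8.33 and 7.97), KO vehicle next (7.86, 7.22 and 6.72), and the stimulated groups last, between 1.44 and 2.21, with overlap between every neighbouring pair apart from the step down to the stimulated groups.

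FFAR4, the long-chain fatty acid receptor, varied widely between the KO vehicle replicates at 6 h. In KO cells given LPS+IFNg its log2 level was 0.38, 1.18 and 1.03 at 6 h, 0.52, 1.54 and 0.45 at 12 h, then 0.62, 0.44 and 0.73 at 24 h. Those given vehicle had 3.22, 6.49 and 3.89 at 6 h, 3.83, 5.80 and 4.59 at 12 h, then 5.19, 5.59 and 4.88 at 24 h. Replicate 2 was again the highest vehicle library at each time, and the treatments did not overlap. The change in KO cells was -3.67 ± 0.55, -3.90 ± 0.55 and -4.62 ± 0.55 (SE), with limma adjusted p of 4.72e-06, 2.15e-06 and 1.14e-07, and the 6 h change ran from -4.33 to -2.70 when each library was left out. WT cells given LPS+IFNg had 0.30, 0.69 and 0.20 at 6 h, 0.48, 0.66 and 0.73 at 12 h, then 0.61, 0.93 and 0.60 at 24 h. WT cells given vehicle had 5.80, 5.54 and 5.43 at 6 h, 5.52, 5.26 and 6.56 at 12 h, then 5.87, 5.26 and 5.94 at 24 h. WT changes were -5.19, -5.16 and -4.98. By mean, the 3 WT vehicle groups (5.59 to 5.78) stood above the 3 KO vehicle groups (5.22, 4.74 and 4.53 at 24, 12 and 6 h), all 6 overlapping with a neighbour, and the stimulated groups lay between 0.40 and 0.86.

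TMEM37, the calcium channel gamma-like protein, was the one whose further decline in stimulated KO cells, at 24 h against 6 h, passed the test given below. KO cells given LPS+IFNg had log2 levels of 5.74, 5.92 and 5.51 at 6 h, 1.72, 3.77 and 2.67 at 12 h, then 1.56, 3.00 and 1.78 at 24 h. KO cells given vehicle had 7.67, 8.88 and 8.78 at 6 h, 8.37, 7.79 and 8.54 at 12 h, then 8.48, 7.81 and 8.80 at 24 h. At 6 h the stimulated KO libraries thus lay well above the level they had at 12 and 24 h, with no overlap, and silencing does not describe that group. The change in KO cells was -2.72 ± 0.58 at 6 h, -5.51 ± 0.58 at 12 h and -6.25 ± 0.58 at 24 h (SE), with limma adjusted p of 0.000479, 1.51e-08 and 1.28e-09. WT cells given LPS+IFNg had 3.15, 2.54 and 3.25 at 6 h, 2.76, 1.66 and 3.64 at 12 h, then 1.95, 1.85 and 1.91 at 24 h. WT cells given vehicle had 8.86, 7.73 and 9.12 at 6 h, 8.76, 6.62 and 9.10 at 12 h, then 9.15, 7.29 and 8.18 at 24 h. WT changes were -5.59, -5.47 and -6.30. By mean, the 6 vehicle groups lay between 8.16 and 8.57 and overlapped, stimulated KO cells at 6 h came next at 5.72 alone, and the other 5 stimulated groups lay between 1.90 and 2.98, overlapping except for stimulated WT cells at 6 h against those at 24 h.

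KLRC4, the lectin-like receptor gene, went down to the lowest value of the table, which other genes share. KO cells given LPS+IFNg had log2 levels of 1.15, 0.69 and 1.43 at 6 h, -0.24, -0.24 and 0.22 at 12 h, then -0.34, -0.12 and -0.12 at 24 h. KO cells given vehicle had 3.98, 2.72 and 3.61 at 6 h, 4.50, 2.25 and 3.00 at 12 h, then 4.76, 2.82 and 3.47 at 24 h. Replicate 2 was the lowest KO vehicle library at each time, and the treatments did not overlap. The stimulated KO libraries at 12 and 24 h all lay below those at 6 h, as for TMEM37, though the difference between 24 and 6 h did not pass the test given below. The change in KO cells was -2.34 ± 0.66, -3.33 ± 0.66 and -3.88 ± 0.66 at 6, 12 and 24 h (SE), with limma adjusted p of 0.00559, 0.000214 and 2.75e-05. WT cells given LPS+IFNg had 1.83, 0.22 and 3.48 at 6 h, 0.90, -0.34 and 0.92 at 12 h, then -0.17, -0.09 and -0.12 at 24 h. WT cells given vehicle had 4.75, 3.76 and 6.03 at 6 h, 5.64, 5.12 and 6.64 at 12 h, then 6.63, 6.40 and 6.76 at 24 h. WT changes were -3.00, -5.31 and -6.73, the widest spread over time among the 5 genes in WT cells. By mean, WT vehicle at 24, 12 and 6 h led (6.60, 5.80 and 4.85), KO vehicle followed within its own spread (3.68, 3.44 and 3.25 at 24, 6 and 12 h), and the stimulated groups lay between -0.20 and 1.84. Each group overlapped with the next among the vehicle groups, and so did KO vehicle at 12 h with stimulated WT cells at 6 h. The lowest value was -0.34, and the offset behind the logarithm is not given, so the size of its change depends on how low counts were handled.

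**Figure D1:**
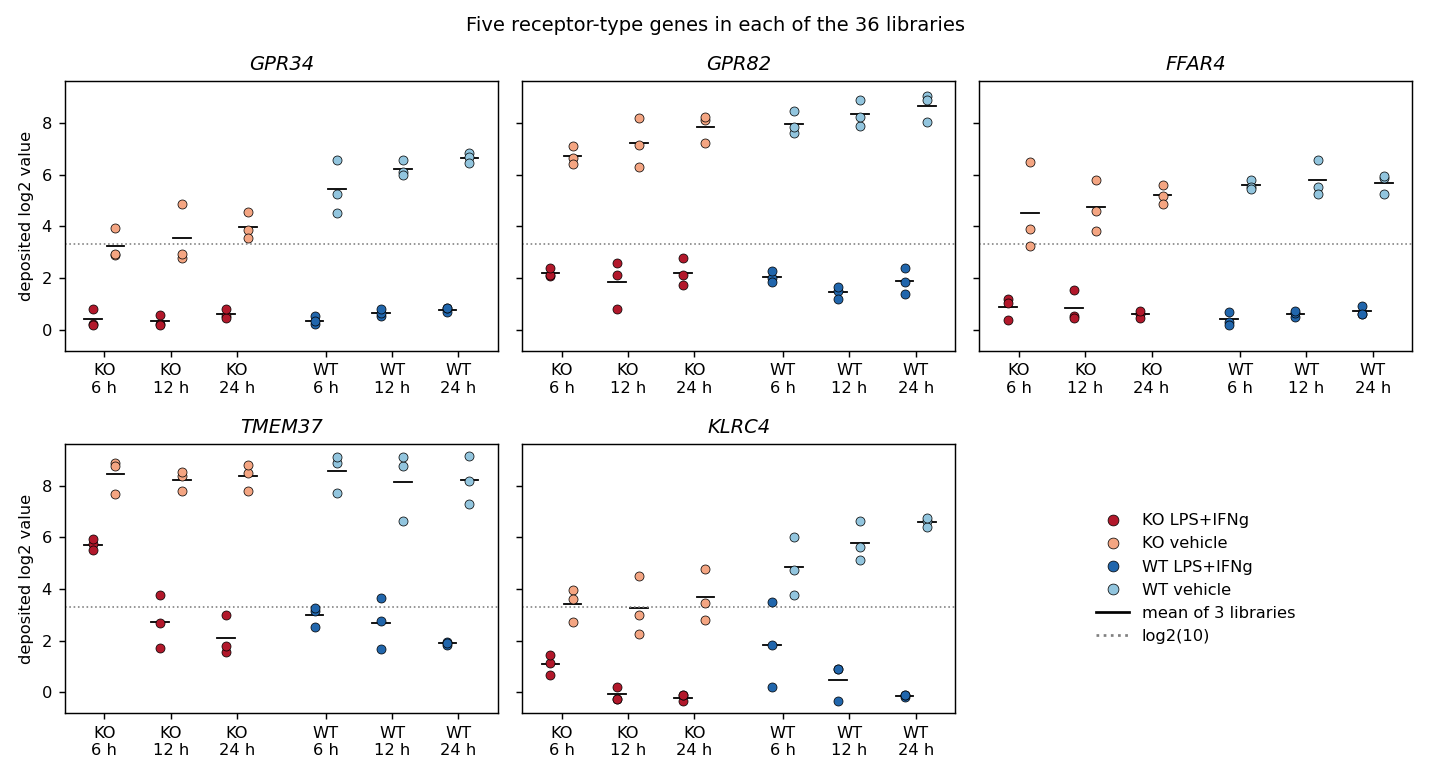
Deposited log2 level (vertical axis) of each of the 5 genes in all 36 libraries, by genotype and hours of treatment (horizontal axis); points are libraries, bars are means of 3, and the dotted line is log2(10). Stimulated libraries lie below the vehicle libraries of the same genotype and time in each panel, and TMEM37 in stimulated KO cells at 6 h (5.51 to 5.92) stands above the other stimulated groups.

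In KO cells, 5 of 5 genes fell at each time, beside a background of 22.5% of all genes called lower at 6 h, 19.5% at 12 h and 21.6% at 24 h, and 10.8% at all 3 times. An exact two-sided permutation test of each gene's mean change, with the 18 KO libraries relabelled within time in 8000 orders, gave p = 0.00025 for each, the smallest these permutations can give. That test takes the libraries as independent of each other, although same-numbered replicates correlated in most comparisons, as given below. With replicate series as the units, so small a p could not be reached. Those mean changes were -5.19 for GPR82, -4.83 for TMEM37, -4.07 for FFAR4, -3.19 for KLRC4 and -3.15 for GPR34. The sizes of the changes of the genes with low levels depend on the offset. With 5 added before the logarithm the mean change was -4.09 for GPR82, -4.14 for TMEM37, -2.36 for FFAR4, -1.39 for KLRC4 and -1.46 for GPR34, each with the same exact permutation p of 0.00025, and the single-time limma adjusted p were at most 0.027 (KLRC4 at 6 h). All stimulated group means of GPR34 and FFAR4 were below 1, as were 4.74% of all kept values.

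**Figure D2:**
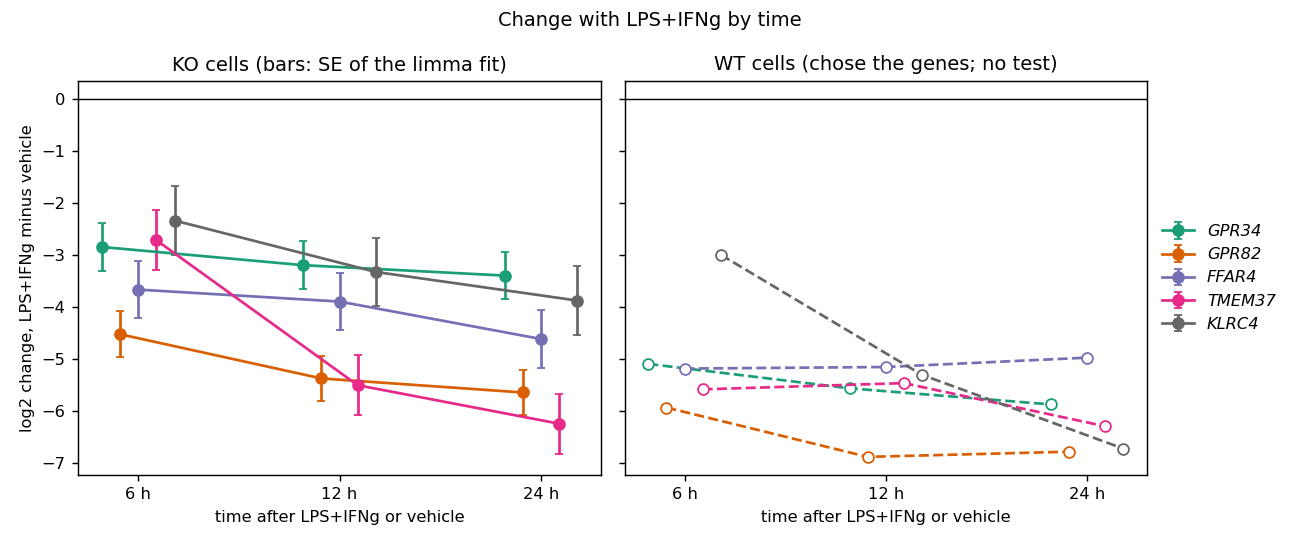
Change with LPS+IFNg on the log2 scale (vertical axis) at 6, 12 and 24 h (horizontal axis) for KO cells on the left, with bars of ± 1 SE of the limma fit, and WT cells on the right, whose values chose the genes. TMEM37 in KO cells steps from the group of small changes at 6 h (-2.72) to the largest of the 5 at 12 and 24 h (-5.51 and -6.25), while the other KO lines are flatter. In WT cells the KLRC4 line is the steepest, from -3.0 at 6 h to -6.73 at 24 h.

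Within KO cells the time course was tested apart from the treatment. None of the 5 genes passed the limma test between 24 and 6 h in vehicle, and 1, GPR82, had an unadjusted p below 0.05. The limma log2 changes were 0.74 for GPR34 (adjusted p = 0.675), 1.13 for GPR82 (0.343), 0.69 for FFAR4 (0.757), -0.08 for TMEM37 (0.984) and 0.25 for KLRC4 (0.941). Among all genes, 0.608% were called lower and 0.226% higher in that comparison. With LPS+IFNg, 1 of 5 was lower at 24 h than at 6 h, beside 13.0% of all genes lower and 14.5% higher: TMEM37, by -3.61 ± 0.58 (SE, limma adjusted p = 5.43e-05). KLRC4 differed by -1.29 (adjusted p = 0.148), FFAR4 by -0.26 (0.76), GPR34 by 0.19 (0.8) and GPR82 by 0.01 (0.986), none past the threshold in limma, adjusted or not. The change with LPS+IFNg at 24 h minus that at 6 h, a comparison chosen after the data were seen, was -3.53 ± 0.83 for TMEM37 (SE, limma adjusted p = 0.00936), where 3.41% of genes were called with a lower and 3.35% with a higher response. For KLRC4, GPR82, FFAR4 and GPR34 that difference was -1.53, -1.12, -0.95 and -0.55, with limma adjusted p of 0.359, 0.313, 0.525 and 0.689. These 3 comparisons share the KO libraries at 6 and 24 h and are not independent of each other.

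Between genotypes the values are given with no test, since they contain the WT libraries that chose the genes. In vehicle, 2 of 5 genes had every KO library below every WT library at each time, beside 13.1%, 13.1% and 12.2% of all genes at 6, 12 and 24 h, and 0 of 5 had every KO library above, beside 12.5%, 12.2% and 10.9%. GPR34 was 1 of them at all 3 times, with KO minus WT means of -2.20, -2.70 and -2.67. KLRC4 differed by -1.41 at 6 h, where the groups overlapped, and by -2.55 and -2.92 at 12 and 24 h, where they did not. GPR82 differed by -1.25 at 6 h without overlap and by -1.11 and -0.80 at 12 and 24 h with overlap. FFAR4 differed by -1.05, -1.04 and -0.47, and TMEM37 by -0.13, 0.08 and 0.16, all with overlap. The summed macrophage markers were lower in KO vehicle than in WT vehicle libraries too, without overlap, and their part in these differences was not tested. In stimulated cells 0 of 5 lay below WT in every library, beside 9.63%, 11.0% and 9.18% of all genes. At 6 h 1 of 5 lay above WT, beside 11.1% of genes, and at 12 and 24 h 0 of 5 did, beside 12.6% and 12.1%. The gene above was TMEM37, by 2.74 at 6 h, with means of 5.72 ± 0.21 in KO cells and 2.98 ± 0.38 in WT cells (SD, n = 3 each). At 12 and 24 h TMEM37 differed by 0.03 and 0.21, with overlap.

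Across the 12 group means the 5 genes ran closely together, with Pearson r from 0.855 (GPR34 and TMEM37) to 0.996 (GPR82 and FFAR4). These correlations describe groups that share the treatment contrast by which the genes were chosen. Outside the set, the 3 genes most like GPR34 were PPARGC1A (0.991), a coactivator of mitochondrial genes, IKBIP (0.985) and the GABA transporter SLC6A11 (0.983). GPR82 and FFAR4 shared GRAMD4 (0.995 and 0.993), and the next were the membrane protease ST14 for GPR82 (0.993) and LINC02975 for FFAR4 (0.991). TMEM37 was most like CCDC15 (0.991), CDKN2AIPNL (0.990) and GRHPR (0.989), whose means spanned a smaller range. KLRC4 was most like KLRK1 (0.995), then COPS3 (0.990) and YIF1B (0.987).

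The neighbours on the chromosome differed in direction by locus. GPR34 and GPR82 lie side by side within CASK, which encodes a membrane scaffold kinase, and CASK rose. Its log2 level averaged 3.82, 4.81 and 5.02 in stimulated KO cells at 6, 12 and 24 h, against 1.67, 1.91 and 2.51 in KO cells given vehicle. That is a change of 2.15, 2.90 and 2.52 (limma adjusted p = 0.000203, 4.3e-06 and 2.9e-05), with 2.99, 3.14 and 2.82 in WT cells. Host and nested genes thus moved in opposite directions in both genotypes, and whether counting used strand is not given in the sources used here.

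KLRC4 lies within the readthrough gene KLRC4-KLRK1, and reads of the region can be shared between the 3 entries and with the closely similar KLRC1, KLRC2 and KLRC3, so its values are uncertain to that extent. KLRK1, the NKG2D receptor gene, averaged 1.95, 0.18 and 0.30 in stimulated KO cells at 6, 12 and 24 h, against 4.72, 4.54 and 4.99 in KO cells given vehicle. Its changes in KO cells were -2.78, -4.36 and -4.69 (limma adjusted p = 0.00828, 0.000121 and 4.24e-05), and in WT cells -2.62, -5.71 and -7.81. KLRC4-KLRK1 fell in KO cells too (-1.92, -2.91 and -3.16), as did the antisense transcript KLRK1-AS1 (-2.22, -2.88 and -2.79), all called by limma. KLRK1 also had means of 6.09, 7.18 and 8.13 in WT vehicle cells, so its means stood higher in WT than in KO vehicle cells, as those of KLRC4 did.

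**Figure D3:**
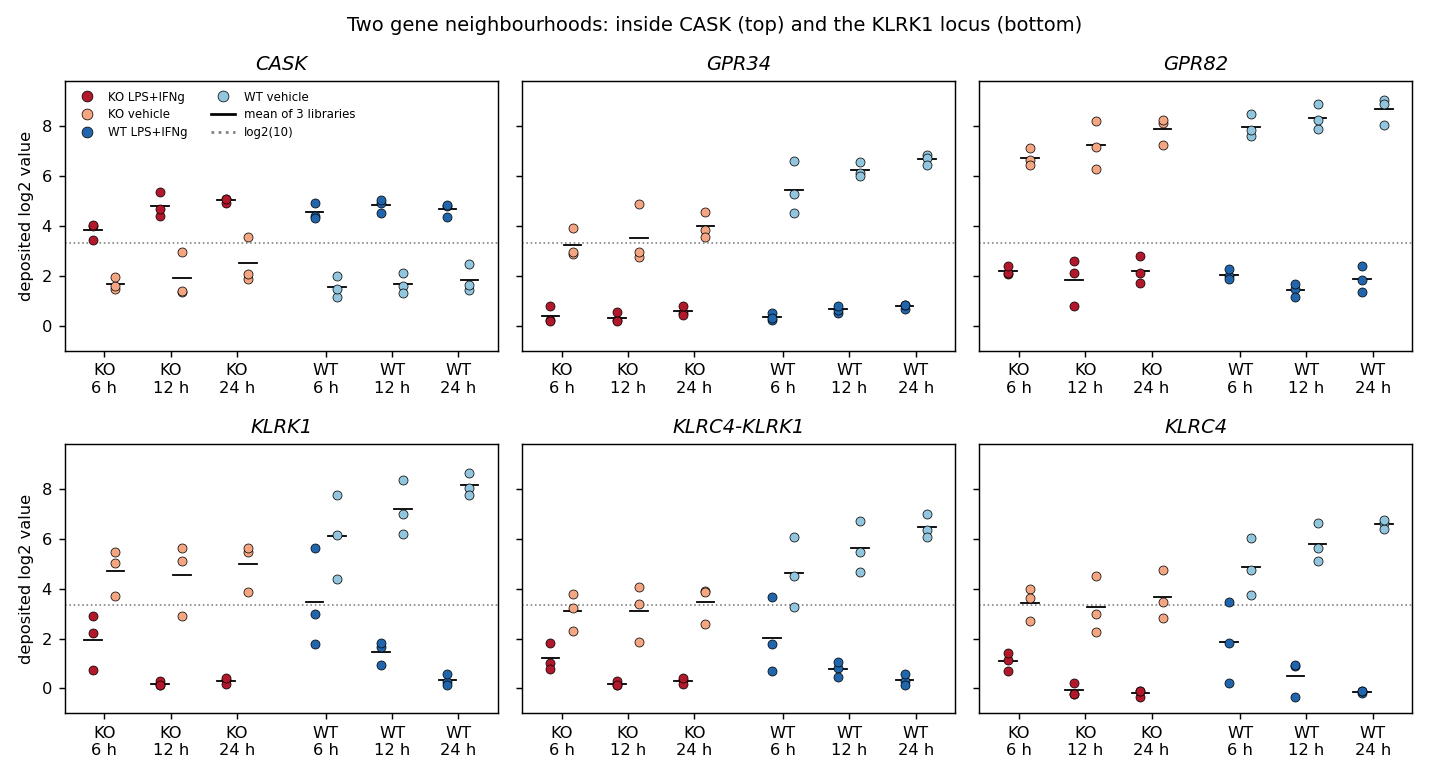
Deposited log2 levels (vertical axis) by genotype and time (horizontal axis) of CASK with the genes nested in it, GPR34 and GPR82, and of KLRK1, the readthrough KLRC4-KLRK1 and KLRC4; points are libraries, bars are means of 3 and the dotted line is log2(10). CASK is higher with LPS+IFNg where its nested genes are lower, and the 3 entries of the KLRK1 locus move alike.

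Beside TMEM37 on chromosome 2, SCTR, the secretin receptor gene, fell in KO cells, with changes of -2.58, -3.53 and -3.91 (limma adjusted p = 0.00774, 0.000512 and 0.000143). The other neighbours of TMEM37, DBI and C2orf76, had changes between -0.49 and 0.56 in both genotypes, none called by limma. Next to FFAR4 on chromosome 10, RBP4, the retinol carrier, had changes of 0.14, -1.49 and -3.62 in KO cells, of which only that at 24 h passed (limma adjusted p = 0.000251), and CEP55, a cell division gene, had -1.13, -2.02 and -2.37, of which those at 12 and 24 h passed. Of the 12 neighbours kept, 5, 7 and 6 fell and 1 rose at 6, 12 and 24 h in KO cells, where 22.5%, 19.5% and 21.6% of all genes were called lower. The 5 neighbours of KLRC4, which can share reads with it or with each other, made up 4, 5 and 3 of these falls. Of the 7 neighbours of the other genes, 1, 2 and 3 fell and 1 rose, with medians of -0.30, -0.29 and -0.12 beside -0.20, -0.12 and -0.08 over all genes.

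Related genes were read from lists made by family and role. Several genes named from these lists had mean levels over all libraries below the filter value. Among them were GPR31 (2.23), HCAR1 (2.55), GRK5 (2.18), CACNG3 (2.3), CACNA1I (2.55) and KLRC1 (1.33). The same held for some neighbours above, such as SCTR (2.2) and RBP4 (2.18). The sizes of the changes of such genes depend on the offset, which is not given. Among all genes, 16.2%, 15.5% and 17.3% were called higher in KO cells at 6, 12 and 24 h, and 15.1%, 16.8% and 20.2% in WT cells. Called lower were 22.5%, 19.5% and 21.6% in KO cells and 20.9%, 21.7% and 26.1% in WT cells. On a list of receptors and enzymes drawn up for lysophosphatidylserine, 6 genes other than GPR34 were kept. Of these, 3, 4 and 5 rose and 1, 0 and 0 fell at 6, 12 and 24 h in KO cells (medians 1.36, 1.57 and 2.21). Besides enzymes that make the lipid, the list holds other receptors, an enzyme that breaks it down and LIPH, which is not taken here to make it. These counts therefore do not measure supply of the ligand. LIPH was among the rises in KO cells at 6 and 24 h (1.56 and 2.06). PLA1A, a secreted phospholipase that makes lysophosphatidylserine, rose by 6.56, 6.21 and 5.04 in KO cells and by 5.85, 5.88 and 5.06 in WT cells. ABHD16A, which makes it inside cells, rose by 1.17, 0.89 and 0.55 in KO cells and by 0.63, 0.85 and 0.56 in WT cells. P2RY10, another receptor for this lipid, rose in WT cells by 2.67, 2.41 and 2.67 and in KO cells by 3.01 and 4.34 at 12 and 24 h. PLA1A and ABHD16A thus rose at all 3 times at which GPR34 fell. ABHD12, which breaks the lipid down, had changes of -0.59, 0.90 and 1.36 in KO cells, all called by limma.

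Among 9 other P2Y-type receptors, 4, 3 and 2 rose and 2, 2 and 2 fell in KO cells (medians 1.41, 1.20 and 0.33). P2RY12, an ADP receptor of platelets and microglia, fell in KO cells (-3.10, -2.87 and -2.34) and in WT cells (-2.24, -2.12 and -2.81). P2RY1 fell in KO cells (-1.44, -1.46 and -1.47) and in WT cells (-1.51, -1.37 and -1.15) as well. P2RY6, the UDP receptor, rose by 2.88, 2.33 and 1.17 in KO cells and by 2.17, 1.79 and 0.78 in WT cells. P2RY11, an ATP receptor, fell in WT cells (-2.21, -2.13 and -2.69) and had -0.82, -0.32 and -0.46 in KO cells, none called. Direction therefore differed within the family. Over 45 other GPR-named receptors, 11, 10 and 11 rose and 7, 8 and 5 fell in KO cells, with medians of 0.09, 0.38 and 0.69. Beside both lists, 16.2%, 15.5% and 17.3% of all genes were called higher and 22.5%, 19.5% and 21.6% lower in KO cells. The counts of these lists were not tested against those shares. GPR132 rose by 3.25, 3.52 and 3.94 and GPR157 by 4.95, 4.40 and 4.27. GPR31 rose by 4.89, 3.88 and 2.59 in KO cells. GPR39, a zinc-sensing receptor, rose in WT cells by 1.98, 2.73 and 3.97, while the proton sensor GPR65 fell in WT cells (-3.12, -3.36 and -2.62). In KO cells GPR39 was called higher at 24 h only (1.83) and GPR65 lower at 6 h only (-3.33).

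Among 11 other receptors of fatty acids and hydroxy acids, 4, 3 and 4 rose and 2, 1 and 1 fell in KO cells (medians 1.57, 0.68 and 0.99), and 2, 2 and 4 rose and 2, 2 and 2 fell in WT cells (medians 0.02, 0.37 and 0.64). HCAR2, the niacin and ketone body receptor, rose by 7.99, 7.25 and 5.87, and its near copy HCAR3, with which it may share reads, by 8.66, 6.63 and 6.15. HCAR1, the lactate receptor, rose by 4.29, 2.64 and 2.80 in KO cells. PPARG, the nuclear receptor for fatty acids, fell in KO cells (-1.84, -3.12 and -3.59) and in WT cells (-2.55, -4.22 and -3.69). CD36, a fatty acid importer, fell in WT cells (-1.03, -1.58 and -1.87), and in KO cells it was called lower at 6 h only (-1.31, -0.43 and -0.74). Below the receptors, 9, 6 and 7 of 16 transducer genes fell and 0, 1 and 1 rose in KO cells (medians -0.79, -0.55 and -0.72). Over all genes, 22.5%, 19.5% and 21.6% were called lower there, with medians of -0.20, -0.12 and -0.08. ARRB2, which encodes the arrestin that FFAR4 uses in mouse macrophages, changed by -1.28, -1.42 and -1.47 in KO cells (limma adjusted p = 0.0237, 0.0139 and 0.01), and the receptor kinase gene GRK5 by -3.26, -2.19 and -1.93. GNAI1, which encodes an inhibitory G protein subunit, fell in KO cells (-0.85, -1.63 and -1.84). In WT cells the other beta-arrestin gene, ARRB1, fell (-2.0, -1.29 and -1.34), and in KO cells it was called lower at 6 h only (-1.56, -0.60 and -0.44). The receptor kinase gene GRK6 fell at all 3 times in WT cells (-1.90, -1.36 and -1.02) and in KO cells (-1.59, -1.50 and -1.07).

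For TMEM37, 4, 7 and 8 of 18 other calcium channel subunit genes rose and 4, 4 and 4 fell in KO cells (medians -0.26, 1.08 and 1.76). CACNG3, a gamma subunit gene, rose by 5.27, 4.71 and 5.38, CACNA1I by 4.84, 4.67 and 4.51, and the auxiliary subunit gene CACNA2D1 by 2.45, 3.58 and 3.57. CACNA2D4 fell in KO cells (-1.05, -2.01 and -2.06) and in WT cells (-1.54, -2.31 and -2.16), and CACNA1D, a pore subunit gene, fell in WT cells (-2.84, -2.43 and -1.93). For KLRC4, 0, 1 and 0 of 10 other lectin-like receptor and adaptor genes rose and 4, 5 and 3 fell in KO cells (medians -1.57, -1.04 and -1.23). Over all genes, 22.5%, 19.5% and 21.6% were called lower there. The falls include KLRC1 and KLRK1 at every time, KLRC2 at 6 and 12 h and KLRC3 at 12 h, which can share reads with KLRC4. Those falls are therefore not separate evidence of a fall across the family. The other falls in KO cells were of KLRG1 at 6 and 12 h (-2.90 and -1.50) and of the adaptor gene HCST at 24 h (-2.40). KLRC1, the inhibitory NKG2A gene, fell in KO cells (-2.75, -2.69 and -1.79), and KLRG1, an inhibitory receptor gene, fell at all 3 times in WT cells (-2.83, -2.34 and -1.63). TYROBP, a signalling adaptor that macrophages express too, had -0.37, -0.58 and -0.74 in KO cells, none called. On the ligand side of this family, 3 of 8 rose at each time and 2, 1 and 1 fell: HLA-E rose by 2.41, 2.19 and 2.18, MICB by 2.47, 1.78 and 1.70 and MICA by 1.48, 1.20 and 1.03, and ULBP3 fell (-1.84, -2.40 and -2.09).

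Natural killer and T cell markers were checked because KLRC4 belongs to that lineage. Of 11, 9 had a row, and the summed log2 level was 20.7 to 36.0 in stimulated KO libraries, 21.1 to 27.2 in KO vehicle libraries, 20.7 to 32.4 in stimulated WT libraries and 19.1 to 30.1 in WT vehicle libraries, so the groups overlapped. No more than 1 of the 9 passed in either direction in any stimulation comparison. CD2 and NCR1 were at or near 0 in several groups, while NKG7 and GNLY had values of at least 4.06 in every library. EOMES, a transcription factor of that lineage, had group means of 4.24 to 7.29 in KO cells and 1.62 to 2.83 in WT cells, and its part in the KLRC4 values was not tested.

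GPR34 is also one of the genes of resting microglia. Of 17 others on that list, 7, 7 and 11 fell and 1, 1 and 1 rose in KO cells, and 7, 9 and 11 fell and 1, 1 and 1 rose in WT cells. Over all genes, 22.5%, 19.5% and 21.6% were called lower in KO cells and 20.9%, 21.7% and 26.1% in WT cells. CX3CR1 changed by -3.20, -3.73 and -5.63 in KO cells, and TREM2, a lipid-sensing receptor, by -1.82, -3.69 and -5.22. SLCO2B1, a transporter, changed by -4.66, -4.71 and -4.60, and MERTK, a receptor for dying cells, by -4.50, -1.79 and -1.56. OLFML3, which encodes a secreted matrix protein, fell in WT cells (-2.82, -2.87 and -5.21). In KO cells it had -0.71, -1.79 and -4.48, of which only that at 24 h was called. TMEM119, another marker on the list, had -1.79, 1.32 and 2.45 in KO cells and was the member that rose there at 24 h. List medians were -0.69, -1.09 and -1.56 in KO cells beside -0.20, -0.12 and -0.08 over all genes.

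**Figure D4:**
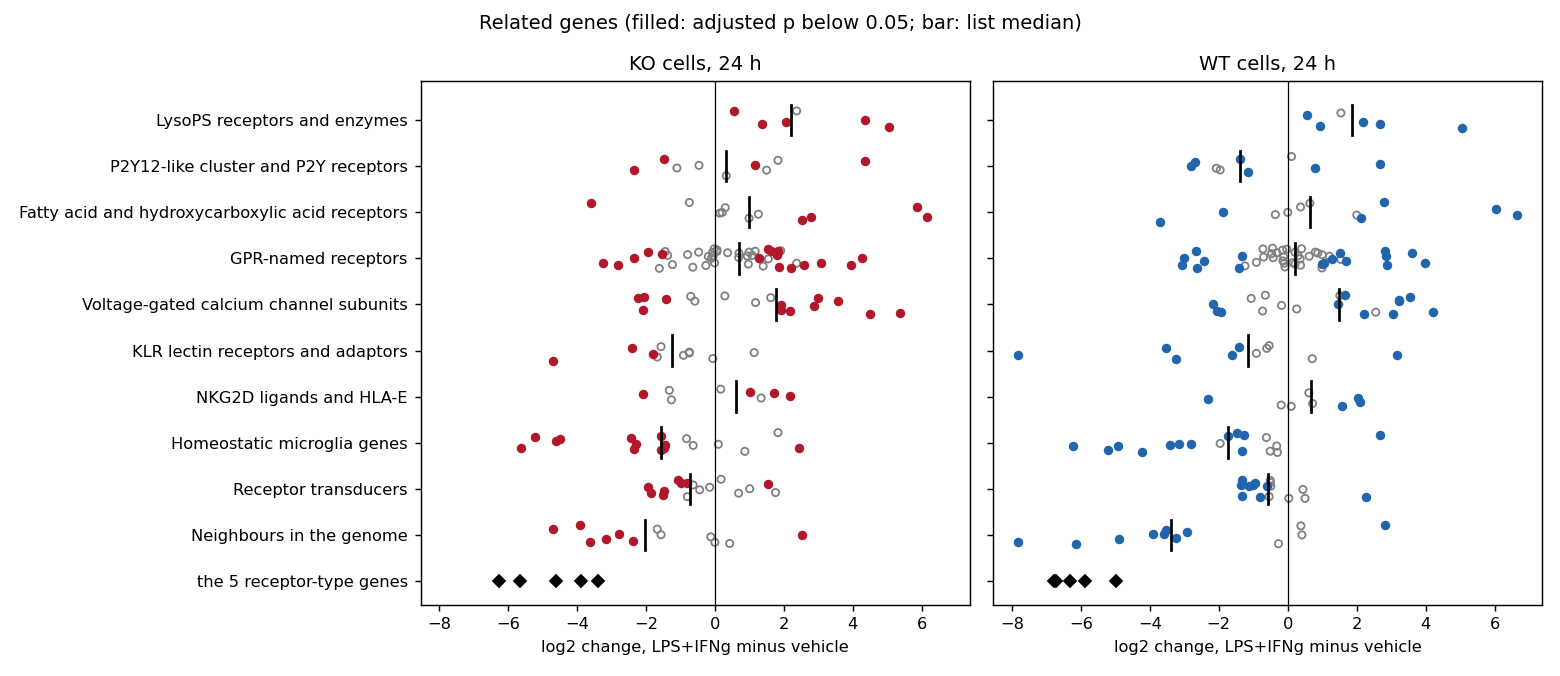
Change with LPS+IFNg at 24 h on the log2 scale (horizontal axis) of the genes of each related list (rows), in KO cells on the left and WT cells on the right; filled points have a limma adjusted p below 0.05, bars are list medians, and diamonds are the 5 genes described. Most lists hold genes on both sides of 0, and the 5 genes lie between -6.25 and -3.40 in KO cells.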

How the data were processed

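The 36 THP-1 RNA-seq libraries, 3 in each of 12 groups, were grouped by their sample labels. The authors deposited 1 table of log2 expression values per Entrez Gene row, used as deposited. Per the submitters' processing notes, cutadapt 1.9.1, GSNAP and the build GRCh37.p5 were used, and per the labels' protocols the libraries were depleted of ribosomal RNA. The counter, annotation, offset and normalization are not given in the sources used here. Library medians ran from 5.4691 to 5.4753, and at 88.0% of ranks the sorted values of the libraries differed by less than 0.1. Nearly equal distributions were thus deposited, apart from the remaining ranks. Symbols were taken from a RefSeq table of GRCh38.p14, which matched 20609 of 21599 rows, and 990 did not match.

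The 12 group means entered a single linear model of the 36 libraries (limma 3.58.1, R 4.3.3), whose variances were moderated by eBayes with trend = TRUE, leaving 24 residual degrees of freedom, and p-values were adjusted by Benjamini-Hochberg over the 21232 genes kept (at or above 3.32 in at least 3 libraries), with a threshold of 0.05. Of 9 comparisons, the response at 24 h against 6 h in KO cells was added after the data were seen, as was leaving out KO replicate 2. The genes and lists described were chosen with earlier results of these data known. From each list the text names up to 3 genes called in 1 direction at all 3 times in KO cells, by largest mean change. Up to 2 more were named by the same rule in WT cells. DBI, C2orf76, ABHD12, LIPH, RBP4, CEP55, TYROBP, HCST, TMEM119 and single markers were named after their values were seen. Neighbouring genes come from the same RefSeq table by gene order only. Same-numbered replicates correlated over 0.1, after removal of group means, in every pair of 6 of 8 comparisons. Tables were made with Python 3.11.15, pandas 2.3.3, scipy 1.17.1 and matplotlib 3.10.9.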

Additional observations from a re-analysis of the deposited data

Results flagged for a closer look

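The response of TMEM37 to LPS+IFNg in KO cells differed between time points when the difference itself was tested: the response at 24 h minus that at 6 h was -3.53 on the log2 scale (limma adjusted p = 0.00936), with all 3 stimulated KO libraries at 24 h below all 3 at 6 h. Leaving out each library in turn gave -3.98 to -3.15, and leaving out KO replicate 2 throughout gave -4.37 (limma adjusted p = 0.0145), and over all settings run the adjusted p was 0.00463 to 0.0324.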

How the results depend on the processing

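The 15 falls with LPS+IFNg in KO cells and the changes of TMEM37 over time in stimulated cells and in the response kept their direction and stayed past the threshold, and no other tested change of the 5 genes passed it, under no filter, a stricter filter, a pseudocount of 5, quantile normalization, the replicate block, a fit of the 18 KO libraries and each library left out, and also without KO replicate 2, an alternative chosen after seeing the data. The stricter filter kept genes whose mean level was at or above the median, and it kept the 5 genes whatever their level. It therefore does not show whether they would pass such a filter. Quantile normalization could change little, because at 88.0% of ranks the libraries already differed by less than 0.1. Testing with no filter could change little too, since the filter had removed 367 genes. The largest adjusted p of a fall in KO cells was 0.0317 (KLRC4 at 6 h, 1 library left out). Counts of called genes moved more. The stricter filter, which tests fewer genes, gave 4395, 4034 and 4653 for KO stimulation at 6, 12 and 24 h (8219, 7430 and 8269 as reported), 4078, 4597 and 5659 for WT stimulation (7640, 8177 and 9847), 69 for KO vehicle over time (177), 3365 for stimulated KO cells over time (5830) and 891 for the difference of KO responses (1434). KO vehicle over time gave 287 with the pseudocount. With the replicate block, KO vehicle over time gave 452 and the difference of KO responses 2485, and the block changed no call of the 5 genes. In 2 of 8 comparisons, KO stimulation at 24 h and stimulated KO cells over time, the lowest same-number correlations were 0.0387 and 0.0191. Without KO replicate 2 the 3 counts over time were 90, 3403 and 672. With 1 library left out at a time the ranges were 6827 to 8260, 5847 to 6651 and 6661 to 7599 for KO stimulation, 6321 to 6834, 6623 to 7560 and 8566 to 9302 for WT stimulation, 68 to 156 for KO vehicle over time, 4194 to 6172 for stimulated KO cells over time and 889 to 1732 for the difference of KO responses. Counts over time were lower by over 1.5 times for KO vehicle without KO vehicle 24 h replicate 1 (68), replicate 2 (112) or replicate 3 (87) and without KO vehicle 6 h replicate 2 (76) or replicate 3 (107), and for the difference of KO responses without KO vehicle 24 h replicate 2 (939) or KO vehicle 6 h replicate 3 (889). The causes of the other moves were not tested. Depth is unknown, so what it limits cannot be given.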
